A study of Mus musculus with 12 samples.

Results

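Intraflagellar transport (IFT) builds and maintains cilia. Large protein trains carry cargo along the microtubules of the cilium, with the IFT-B complex and kinesin-2 motors serving the way to the tip and the IFT-A complex and dynein-2 the way back. The outer segment of a photoreceptor is a modified cilium, and rod opsin and other membrane proteins reach it through the connecting cilium, where these trains run. The genes followed here are the 10 IFT subunit genes *Ift20*, *Ift46*, *Ift52*, *Ift57*, *Ift80*, *Ift81*, *Ift88*, *Ift122*, *Ift140* and *Ift172*. They were taken by gene symbol from the 19057 genes that the deposited signal table names, and 25 of its 45281 probes belong to them. Of these 25 probes, 19 were detected on at least 1 array and were tested together with all 24311 such probes, and 16, from 8 of the genes, were detected on all 12 arrays.

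The series measured polyA RNA of P10 mouse retina on Illumina bead arrays, with 3 arrays for each of 4 *Crx* genotypes on a *C57bl6/J* background. WT retinas carried neither knock-in nor knock-out alleles of *Crx*. *E168d2neo/d2neo* and *R90Wneo/Wneo* retinas were homozygous for knock-in alleles that encode a CRX truncated in its activation region or altered in its DNA-binding homeodomain. Both alleles still hold the *neo* selection cassette in an intron, and per the methods these sublines make less mutant protein than the lines from which the cassette was removed. *Crx-/-* retinas were homozygous for the knock-out. Every array took RNA from the pooled retinas of 1 male and 1 female, so n counts such pools of 2 mice. The question put to these arrays was how each mutant CRX changes retinal transcripts against WT and against loss of CRX, a homeodomain factor of rods and cones.

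Signal means per array ran from 176 to 394, and 32.7% to 41.3% of the probes on each were detected, that is, had a detection p-value below 0.05. WT replicate 1 and *E168d2neo/d2neo* replicate 1 had the lowest means, 176 and 183. The label of retina fitted its markers, since 10 of 10 rod marker genes with a probe were detected on at least 1 array. *Gngt1* was detected on 1 array only, in *R90Wneo/Wneo*, and on 0 in WT. *Gnat1*, the rod transducin alpha subunit, read 15.73 ± 0.10 on the log2 scale in WT (SD of 3 arrays). The summed linear signal of these rod markers lay between 155415 and 170657 in WT, 30067 and 39733 in *E168d2neo/d2neo*, 68700 and 120646 in *R90Wneo/Wneo*, and 48196 and 54688 in *Crx-/-*. Of the 10 rod markers, 7 were called lower in *Crx-/-*, 8 in *E168d2neo/d2neo* and 1 in *R90Wneo/Wneo*. In whole retina, fewer cells of a type and less RNA per cell cannot be told apart. Lens markers, a sign of tissue carried over at dissection, ranged in summed signal from 339 to 1100 in WT and from 131 to 86795 over the mutant arrays, highest on *E168d2neo/d2neo* replicate 1. The part of either in the results below was not tested.

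RFX factors are known regulators of cilium genes and bind an imperfect palindrome, the X-box, while CRX binds the core TAATCC. Promoter windows of RefSeq (GRCm38.p6), from 250 bases before to 50 after the gene start, were at hand for 7 of the 10 IFT genes. They are shown so that the letters bound by either factor can be looked for in the transport genes themselves, and the parts printed span 150 bases before the start and 30 from it. Capitals mark every match, on either strand, to TAATCC, to the X-box arm GTTGCC, or to a whole X-box, GTNNCC followed after 0 to 3 further letters by NGNAAC. Where a whole X-box holds the arm GTTGCC, the matches overlap. *Ift57*, *Ift140* and *Ift172* are the IFT genes with a match before or at the start, *Dynlrb2* and *Ift43* are partner genes described further on, of which *Ift43* has none.
Ift57: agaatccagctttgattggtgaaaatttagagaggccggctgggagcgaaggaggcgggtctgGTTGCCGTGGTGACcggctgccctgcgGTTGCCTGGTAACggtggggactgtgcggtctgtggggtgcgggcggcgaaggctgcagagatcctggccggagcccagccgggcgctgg
Ift140: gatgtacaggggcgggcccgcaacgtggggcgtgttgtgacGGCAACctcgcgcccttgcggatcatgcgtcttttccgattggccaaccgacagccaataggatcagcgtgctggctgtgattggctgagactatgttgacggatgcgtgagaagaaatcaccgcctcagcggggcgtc
Ift172: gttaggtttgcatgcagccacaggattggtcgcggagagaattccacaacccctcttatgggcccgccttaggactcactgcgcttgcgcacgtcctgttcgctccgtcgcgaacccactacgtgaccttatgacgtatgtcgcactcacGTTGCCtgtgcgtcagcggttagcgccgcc
Dynlrb2: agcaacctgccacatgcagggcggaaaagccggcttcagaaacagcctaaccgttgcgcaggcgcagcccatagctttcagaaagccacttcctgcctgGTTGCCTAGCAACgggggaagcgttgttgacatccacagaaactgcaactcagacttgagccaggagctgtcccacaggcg
Ift43: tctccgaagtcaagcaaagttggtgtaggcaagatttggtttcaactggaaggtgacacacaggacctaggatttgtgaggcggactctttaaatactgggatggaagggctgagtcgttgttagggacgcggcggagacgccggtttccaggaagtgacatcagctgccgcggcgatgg
Positions count from 0 at the first base of the start. The *Ift57* window is chr16:49699144-49699323 (plus strand) and holds whole X-box matches at -87 and -60. In *Ift140* (chr17:25015936-25016115, plus strand) this arm matched on the other strand at -109, and in *Ift172* (chr5:31291085-31291264, minus strand) it began at the start itself. *Dynlrb2* (chr8:116504865-116505044, plus strand) has a whole X-box at -51, and *Ift43* lies at chr12:86082411-86082590 (plus strand). The arm GTTGCC occurred in 4 of the 7 IFT windows, the fourth being *Ift88* at 21, against 12.5% of 32851 windows of the same length. A whole X-box occurred in 1 of 7, against 5.25%. TAATCC occurred in 0 of 7, against 7.06%, which says only that these letters are not in these windows.

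Among the IFT-B core genes, *Ift81* was the member with a call, on 1 of its probes. Its product forms with IFT74 a module that binds tubulin. The log2 normalized signal of its standing probe (ILMN_2735422, the probe with the highest mean) was 9.81, 9.44 and 9.69 on the WT arrays, and 8.50, 9.09 and 8.70 on the *Crx-/-* arrays. The *E168d2neo/d2neo* arrays gave 9.57, 9.06 and 9.14 and the *R90Wneo/Wneo* arrays 9.39, 9.57 and 9.14. Every *Crx-/-* array thus lay below every WT array and below every *R90Wneo/Wneo* array (as 13.9% and 10.6% of all tested probes did), while both knock-in groups overlapped WT. On this probe *Ift81* fell by 0.88 on the log2 scale in *Crx-/-* (SE 0.21, 95% interval -1.34 to -0.42), to 54.2% of WT. Limma with Benjamini-Hochberg adjustment over all tested probes gave an adjusted p of 0.029. This was the 1 IFT probe called in any comparison (adjusted p no higher than 0.05), and it did not reach 2-fold. In this comparison 3.87% of all tested probes were called lower and 3.14% higher.

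The genotype means of this probe ran from 9.65 ± 0.19 in WT through 9.37 ± 0.22 in *R90Wneo/Wneo* and 9.26 ± 0.27 in *E168d2neo/d2neo* to 8.76 ± 0.30 in *Crx-/-* (SD, n = 3). No neighbours in that order differed past the threshold in limma, with differences of -0.28 (adjusted p = 0.683) for *R90Wneo/Wneo* against WT, -0.11 (adjusted p = 0.937) for *E168d2neo/d2neo* against *R90Wneo/Wneo*, and 0.50 (95% interval 0.04 to 0.96, adjusted p = 0.425) for *E168d2neo/d2neo* against *Crx-/-*. Against WT, the *E168d2neo/d2neo* difference was -0.39 (95% interval -0.85 to 0.08, adjusted p = 0.324). A test for any difference among the 4 genotypes gave an adjusted p of 0.106, and 0 of 19 IFT probes passed it, against 5.54% of all tested probes.

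In *Crx-/-* the other probes of *Ift81* gave smaller differences from WT. On ILMN_2634702 the WT arrays stood at 9.31, 9.20 and 9.25 and the *Crx-/-* arrays at 9.01, 9.23 and 9.12, which overlap. The log2 difference was -0.13, with a 95% interval of -0.52 to 0.26 (adjusted p = 0.718). On ILMN_2993804 it was 0.11, from -0.57 to 0.80 (adjusted p = 0.884), and WT replicate 1, at 7.93, was the lowest of all 12 arrays there. In *E168d2neo/d2neo* and *R90Wneo/Wneo*, ILMN_2634702 differed from WT by -0.04 and -0.24. There ILMN_2993804 differed by 0.32 and 0.32, opposite in sign to the standing probe, and none of these was called. The difference between the first and the second probe was 0.75 lower on the log2 scale in *Crx-/-* than in WT, and the arrays did not overlap (exact permutation p = 0.1, two-sided, the smallest that 3 arrays against 3 allow, and 1 after adjustment over 33 such comparisons). The call for *Ift81* thus rests on 1 of its 3 probes. It held in 18 of 24 alternative settings, with values from -1.04 to -0.75, and was lost without WT replicate 1 (adjusted p = 0.0832), WT replicate 3 (0.0865), *Crx-/-* replicate 1 (0.112) or *Crx-/-* replicate 3 (0.0831).

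**Figure D1:**
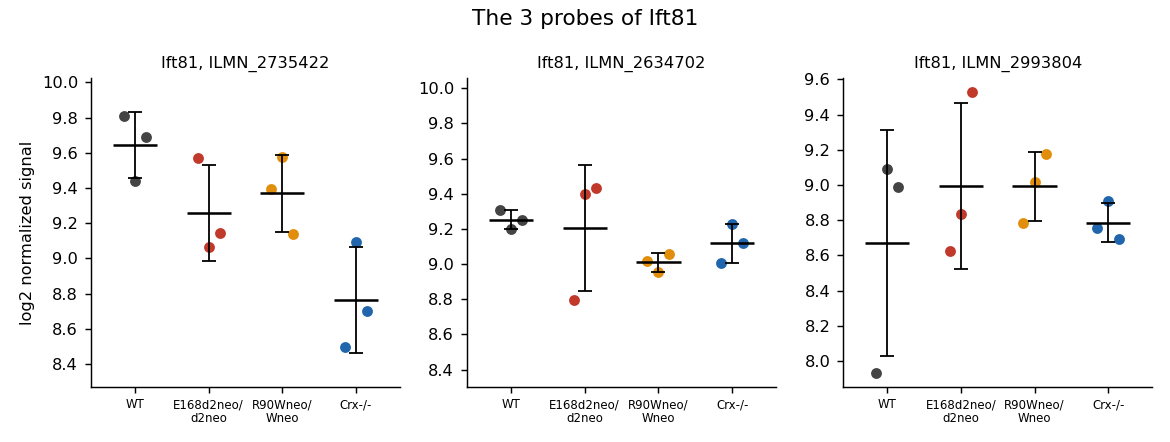
Log2 normalized signal of the 3 probes of *Ift81* by genotype. Points are arrays, bars the mean and SD of 3, and each panel has an axis of its own. On the first probe the *Crx-/-* mean is 8.76 against 9.65 in WT, on the second 9.12 against 9.25, and on the third 8.79 against 8.67.

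*Ift52*, which encodes a core subunit that ties the IFT-B complex together, was the IFT gene whose standing probe had means above WT in all 3 mutants. Its standing probe (ILMN_2788283) read 8.97, 9.41 and 9.30 in WT, 9.23, 9.90 and 9.77 in *E168d2neo/d2neo*, 9.59, 9.65 and 9.74 in *R90Wneo/Wneo* and 9.45, 9.57 and 9.68 in *Crx-/-*. The *R90Wneo/Wneo* and *Crx-/-* arrays all exceeded the WT arrays, and *E168d2neo/d2neo* replicate 1 fell among them. The log2 differences from WT were 0.41 (SE 0.19, adjusted p = 0.251), 0.43 (adjusted p = 0.423) and 0.34 (adjusted p = 0.346), none of which passed. A second probe (ILMN_2772389) gave 0.26, 0.21 and 0.25, also without a call. Leaving out *E168d2neo/d2neo* replicate 1, the array of low signal, brought the first probe past the threshold in that genotype (adjusted p = 0.0346).

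*Ift88* encodes the subunit whose hypomorphic mutation in the mouse is known to cause photoreceptor degeneration. Its detected probe read 8.03, 8.09 and 8.02 in WT, 7.58, 7.87 and 8.09 in *E168d2neo/d2neo*, 8.11, 7.76 and 7.68 in *R90Wneo/Wneo* and 7.74, 8.02 and 7.84 in *Crx-/-*. The WT arrays were close together and each mutant group overlapped their range. The differences of -0.20, -0.20 and -0.18 had 95% intervals that lay between -0.59 and 0.21, so a change of 2-fold was outside each of them. *Ift46*, whose product in *Chlamydomonas* is needed to carry outer dynein arms, was detected on 2 arrays, *E168d2neo/d2neo* replicate 2 at 5.28 and *R90Wneo/Wneo* replicate 2 at 4.85, and allows no fold.

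Of the peripheral IFT-B genes, *Ift20* encodes the subunit also found at the Golgi, where it takes part in sending membrane proteins to the cilium. It read 11, 11.08 and 11.12 in WT, 10.81, 11.03 and 11.32 in *E168d2neo/d2neo*, 11.10, 10.93 and 11.11 in *R90Wneo/Wneo* and 11.04, 11.15 and 11.19 in *Crx-/-*. All groups overlapped. The differences were -0.01 (95% interval -0.35 to 0.33), -0.02 (-0.36 to 0.32) and 0.06 (-0.28 to 0.40), and a second detected probe gave -0.24, -0.02 and -0.21.

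*Ift172* encodes a large subunit at which trains are remodelled at the ciliary tip. Its standing probe read 10.36, 10.19 and 10.18 in WT, 10.25, 9.76 and 10.10 in *E168d2neo/d2neo*, 10.18, 10.03 and 9.98 in *R90Wneo/Wneo* and 9.90, 9.99 and 9.95 in *Crx-/-*. The *R90Wneo/Wneo* and *Crx-/-* arrays lay below all WT arrays, although the highest *R90Wneo/Wneo* array and the lowest WT array both round to 10.18. The differences of -0.21, -0.18 and -0.30 were not called (adjusted p = 0.479, 0.72 and 0.301), and its other probes gave -0.34, -0.32 and -0.44, and -0.25, -0.15 and -0.25. *Ift80*, a subunit gene mutated in human skeletal ciliopathy, read 6.37, 5.93 and 6.38 in WT and 5.86, 5.73 and 5.81 in *Crx-/-*, a difference of -0.43 (adjusted p = 0.263). In *E168d2neo/d2neo* and *R90Wneo/Wneo* it differed by -0.37 and -0.39, with arrays that overlapped WT. None of the 4 probes of *Ift57* was detected on more than 3 arrays, so it has no measured difference.

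Both IFT-A genes of the set had lower means in each mutant than in WT, and neither was called. *Ift140*, whose mutation in people can cause retinal dystrophy, read 8.92, 8.78 and 8.86 in WT, 8.61, 8.36 and 8.55 in *E168d2neo/d2neo*, 8.41, 8.70 and 8.55 in *R90Wneo/Wneo* and 8.64, 8.44 and 8.50 in *Crx-/-*. The WT arrays stood above all 9 mutant arrays. The differences were -0.35 (SE 0.14, adjusted p = 0.18), -0.30 (adjusted p = 0.465) and -0.33 (adjusted p = 0.211). On a dimmer probe (ILMN_1260493) the WT arrays read 6.10, 6.54 and 6.39 and the *Crx-/-* arrays 5.09, 5.85 and 5.76, a difference of -0.78 (adjusted p = 0.12). There *E168d2neo/d2neo* differed by -0.44 and *R90Wneo/Wneo* by -0.24, both with arrays that overlapped WT. The remaining detected probe gave -0.37, -0.59 and -0.33, and each mutant overlapped WT on it.

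*Ift122* encodes a core IFT-A subunit. It read 8.58, 8.41 and 8.31 in WT, 8.22, 8.19 and 8.24 in *E168d2neo/d2neo*, 8.30, 8.43 and 8.03 in *R90Wneo/Wneo* and 7.99, 8.13 and 8.13 in *Crx-/-*. The *E168d2neo/d2neo* and *Crx-/-* arrays lay below WT and the *R90Wneo/Wneo* arrays overlapped it. The differences were -0.22 (adjusted p = 0.437), -0.18 (adjusted p = 0.707) and -0.35 (95% interval -0.68 to -0.03, adjusted p = 0.191).

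**Figure D2:**
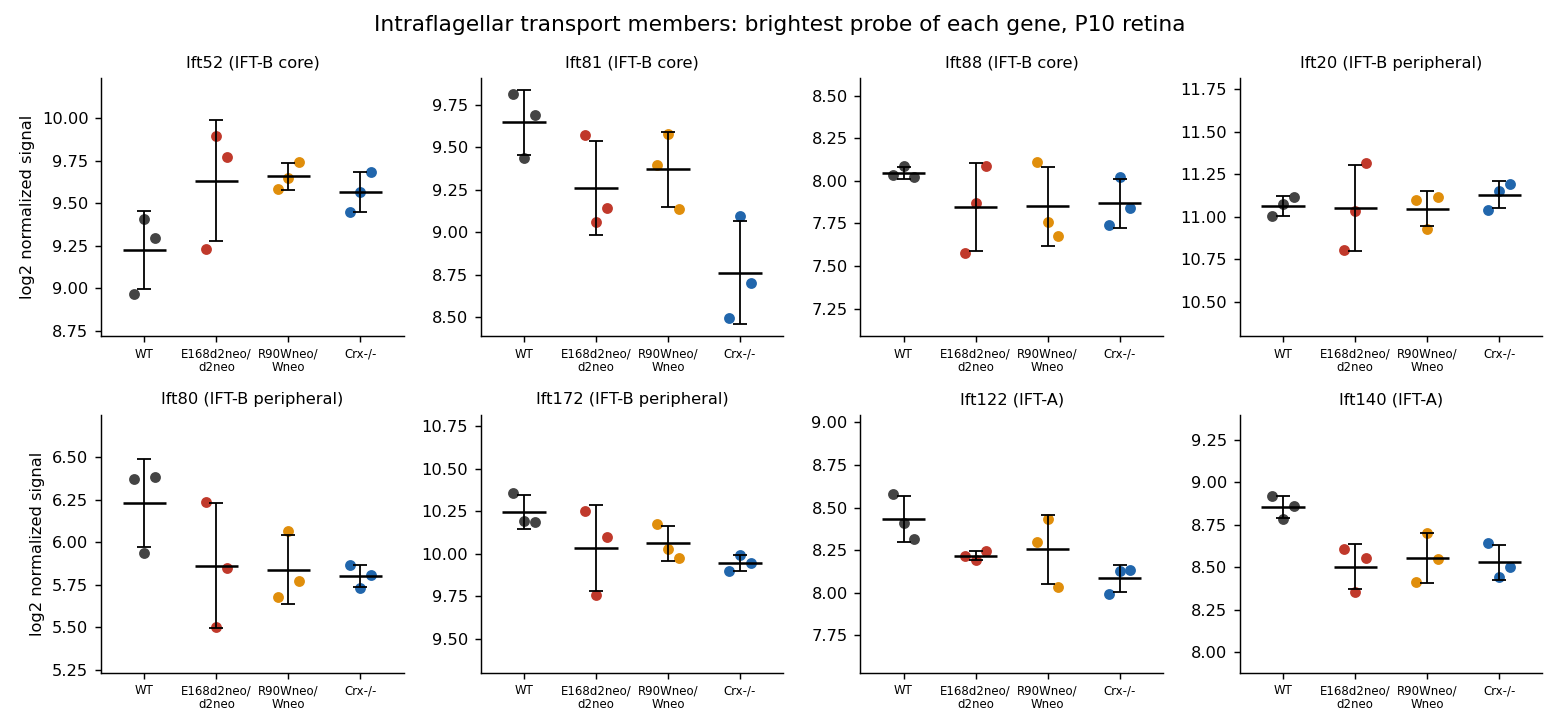
Log2 normalized signal of the standing probe of the 8 IFT genes detected on all 12 arrays, by genotype. Points are arrays, bars the mean and SD of 3, and axes differ between panels, so levels are not compared between genes. *Ift81* drops in *Crx-/-* to 8.76, *Ift140* stands at 8.50, 8.55 and 8.53 in the mutants against 8.85 in WT, and *Ift52* is above its WT mean of 9.22 in each mutant.

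Over the 16 probes detected on every array, most differences from WT were small and below 0. In *E168d2neo/d2neo* 13 of 16 were below 0, with a median of -0.23 and a range from -0.44 to 0.41, in *R90Wneo/Wneo* 13 with a median of -0.19 and a range from -0.59 to 0.43, and in *Crx-/-* 12 with a median of -0.27 and a range from -0.88 to 0.34. Over all 12271 probes detected on every array the medians were 0.01, 0.02 and 0.02, and 48.7%, 47.1% and 48.0% were below 0. The 3 comparisons share the WT arrays, and probes of 1 gene share their transcript, so these counts are not independent. Averaged over the 8 standing probes, the difference from the WT mean was 0.04, -0.05 and 0.02 on the WT arrays, -0.16, -0.26 and -0.09 in *E168d2neo/d2neo*, -0.12, -0.08 and -0.22 in *R90Wneo/Wneo* and -0.33, -0.20 and -0.24 in *Crx-/-*. All 9 mutant arrays were below the lowest WT array, the nearest at -0.08 against -0.05. How often averages of other probes separate in this way was not tested, nor whether this one does without quantile normalization. Without quantile normalization, with arrays scaled to a common mean, the medians over the 16 probes were -0.09, -0.08 and -0.21. Those of all 24311 tested probes, a wider set than the 12271, then rose from 0.01, 0.01 and 0.01 to 0.10, 0.06 and 0.06.

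In *E168d2neo/d2neo* limma called 0 of 19 IFT probes, against 3.68% of all tested probes lower and 2.88% higher, and 1 had an unadjusted p under 0.05. In *R90Wneo/Wneo* it called 0, against 0.847% lower and 0.494% higher, again with 1 at an unadjusted p under 0.05. In *Crx-/-* 4 had an unadjusted p under 0.05, all lower. Of all 24311 tested probes, 5250 had an unadjusted p under 0.05 in *E168d2neo/d2neo* and 2775 in *R90Wneo/Wneo*. In *Crx-/-* 5261 did, of which 2539 were lower. The calls over all tested probes depended on single arrays. Those in *E168d2neo/d2neo*, 1595 with all arrays, ran from 971 without its replicate 3 to 3161 without its replicate 1, those in *R90Wneo/Wneo*, 326 with all arrays, from 92 without its replicate 1 to 532 without *E168d2neo/d2neo* replicate 1, and those in *Crx-/-*, 1705 with all arrays, from 911 without its replicate 2 to 2747 without *E168d2neo/d2neo* replicate 1. SAM, the test of the study's methods, called 0, 0 and 1 IFT probes, the last being *Ift81*, against 866, 28 and 1678 of all tested probes. Of the 16 probes, 7 lay below WT with no overlap in *Crx-/-*, where 13.9% of all tested probes and 2572 of the 12271 detected on every array did. In *R90Wneo/Wneo* 3 did, against 8.5% and 1468, and in *E168d2neo/d2neo* 2 did, against 11% and 1915. Above WT with no overlap lay 1, 1 and 2 probes in the order *E168d2neo/d2neo*, *R90Wneo/Wneo*, *Crx-/-*, all of *Ift52*, against 11.2%, 9.52% and 15.8%. The 7 probes in *Crx-/-* belong to 5 genes, *Ift80*, *Ift81*, *Ift122*, *Ift140* and *Ift172*. The 95% interval stayed inside 2-fold either way for 13, 14 and 13 of the 16 probes. Of the 12271 probes detected on every array it did so for 9297, 10515 and 9234.

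**Figure D3:**
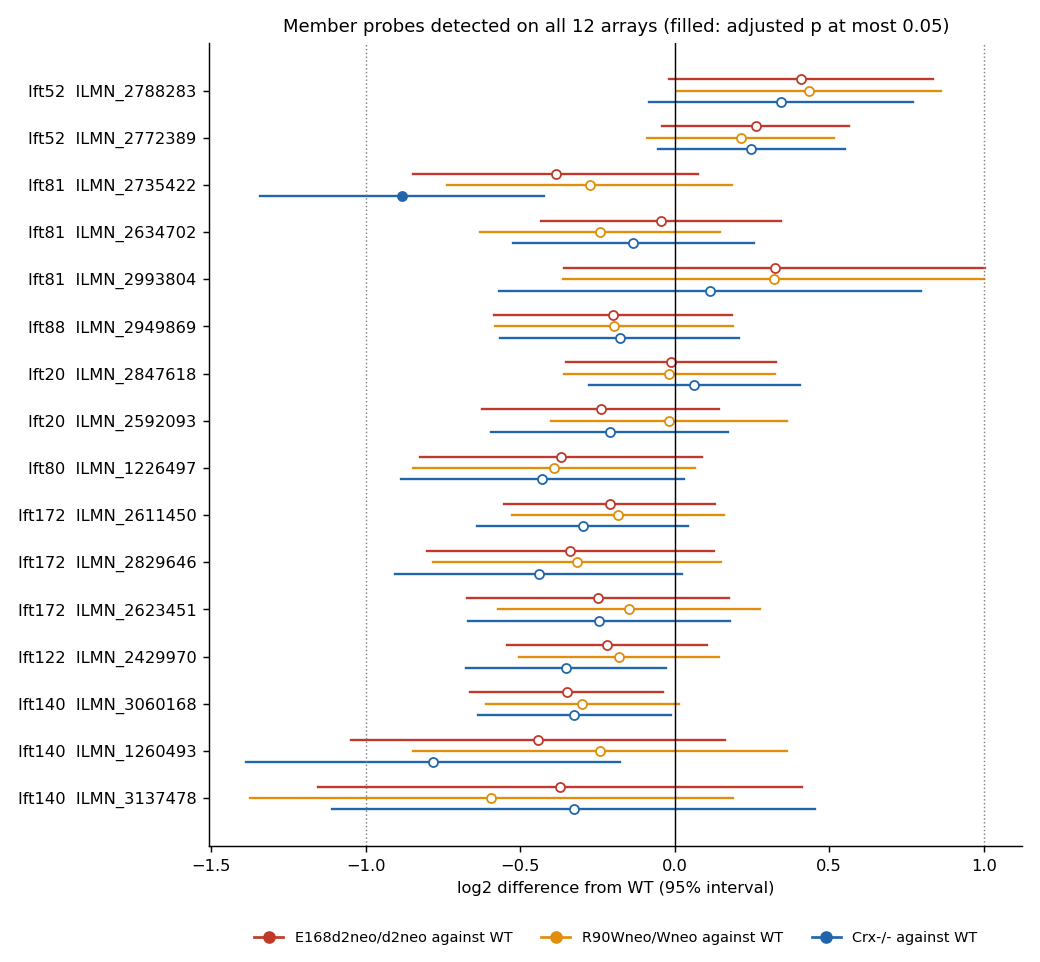
Log2 difference from WT of the 16 IFT probes detected on all 12 arrays, with 95% intervals from limma. Filled points have an adjusted p of at most 0.05 and dotted lines mark 2-fold. The *Ift81* point at -0.88 in *Crx-/-* is the 1 filled point, and the *Ift52* probes lie to the right of 0 in each comparison.

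Between the mutants, limma called 0 of 19 IFT probes in each comparison. Across all tested probes 0.691% were called between *E168d2neo/d2neo* and *Crx-/-*, 0.502% between *R90Wneo/Wneo* and *Crx-/-*, and 0.654% between the knock-in genotypes. The smallest adjusted p was 0.39, 0.312 and 0.788. An unadjusted p under 0.05 was found for 2, 1 and 0 IFT probes, against 2540, 2577 and 2118 of all 24311 tested probes. SAM called 0 in each, against 28, 25 and 68 of all tested probes. The nearest to a call was *Ift81*, 0.61 higher in *R90Wneo/Wneo* than in *Crx-/-* (95% interval 0.15 to 1.07, adjusted p = 0.312). For *Ift140* the same comparison gave 0.03, from -0.29 to 0.34.

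The 5 named genes with the pattern most like the *Ift81* standing probe over the 12 arrays, by Pearson correlation of log2 signal, were *AU022252* (r = 0.956), *Ccdc181* (r = 0.950), *Fancc* (r = 0.937), *1700030J22Rik* (r = 0.936) and *Acrbp* (r = 0.936). Of these, *Ccdc181* encodes a protein of the microtubules of motile cilia and flagella, and *Acrbp* one of the sperm acrosome. Among the IFT genes, *Ift122* (r = 0.82) and *Ift172* (r = 0.77) came closest, and the other *Ift81* probes were at -0.01 and -0.24. These values describe 12 arrays that share genotype groups.

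The rest of the transport machinery was followed on a list of 43 partner genes, made up of other subunits, motors, adaptors and transcription factors of cilium genes, of which 33 were tested. Limma called 6 lower in *Crx-/-* (background 3.87%), 6 in *E168d2neo/d2neo* (3.68%) and 2 in *R90Wneo/Wneo* (0.847%), with 0 higher in any of them, and 0 between mutants. The median log2 difference of the 33 was -0.22 in *Crx-/-*, -0.13 in *E168d2neo/d2neo* and -0.11 in *R90Wneo/Wneo*. Rod markers fell on the same arrays, as given above, and their part was not tested. Among the 2 other tested IFT-A subunits, *Ift43* was called, and *Wdr19*, detected on 4 arrays, was not. *Ift43* read 10.95, 11.19 and 11 in WT, 9.80, 10.09 and 10.12 in *E168d2neo/d2neo*, 10.12, 10.50 and 10.40 in *R90Wneo/Wneo* and 9.85, 9.93 and 9.99 in *Crx-/-*. All 9 mutant arrays lay below WT. For this and the partner genes below, how many of all tested probes separate in the same way was not counted. It fell by 1.04 on the log2 scale in *E168d2neo/d2neo* (SE 0.16, adjusted p = 0.0025) and by 1.12 in *Crx-/-* (adjusted p = 0.00175), and differed by -0.70 in *R90Wneo/Wneo* (adjusted p = 0.0587). So of the IFT-A genes with a probe on all arrays, *Ift43* was at 48.7% and 46.0% of WT, while the standing probes of *Ift140* and *Ift122* had differences between -0.35 and -0.18 and the other probes of *Ift140*, as given above, differences down to -0.78, none of them called.

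The dynein-2 list held 9 tested genes, of which 3 were called lower in *Crx-/-*, 3 in *E168d2neo/d2neo* and 1 in *R90Wneo/Wneo*. *Dynlrb2*, a roadblock light chain, read 8.92, 9.29 and 8.74 in WT, 7.01, 7.23 and 7 in *E168d2neo/d2neo*, 7.63, 7.99 and 7.78 in *R90Wneo/Wneo* and 7.22, 7.15 and 7.01 in *Crx-/-*. The groups followed WT, then *R90Wneo/Wneo*, then the other two genotypes together, with no overlap between these 3 steps. It was the partner gene called in all 3 mutants, with log2 differences of -1.91 (adjusted p = 8.42e-05), -1.19 (adjusted p = 0.0085) and -1.86 (adjusted p = 0.000151), a fall of 3.75-fold, 2.27-fold and 3.62-fold. The differences between *R90Wneo/Wneo* and the others, 0.67 from *Crx-/-* (adjusted p = 0.162) and -0.72 for *E168d2neo/d2neo* against it (adjusted p = 0.136), did not pass.

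*Dync2i1*, the dynein-2 intermediate chain once named WDR60, read 8.48, 8.55 and 8.58 in WT and 6.56, 7.18 and 7.02 in *Crx-/-*. It stood at 7.16, 7.48 and 7.72 in *E168d2neo/d2neo* and at 7.20, 7.89 and 7.74 in *R90Wneo/Wneo*, all below WT. The differences were -1.08 (adjusted p = 0.0169), -0.93 (adjusted p = 0.0833) and -1.61 (SE 0.23, adjusted p = 0.00178) in *E168d2neo/d2neo*, *R90Wneo/Wneo* and *Crx-/-*, and its other probes, near background, were not called. *Dync2li1*, the light intermediate chain, was lower in *E168d2neo/d2neo* (-0.60, adjusted p = 0.037) and *Dynll1*, a light chain shared with other motors, in *Crx-/-* (-0.58, adjusted p = 0.0452). The heavy chain gene *Dync2h1*, the motor itself, differed on its standing probe by -0.05, -0.02 and -0.10, with 95% intervals inside -0.44 to 0.32. Its probes disagreed, since ILMN_1239774 read above WT without overlap in all 3 mutants (0.82, 0.89 and 1.08, with adjusted p = 0.239, 0.398 and 0.121), while ILMN_2557087 and ILMN_2554464 overlapped WT, with differences between -0.13 and 0.24. None of them was called.

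The kinesin-2 list had 0 of 5 genes called in each comparison with WT. Its highest mean belonged to *Kif3a*, a motor subunit, with differences of 0.49 (adjusted p = 0.192), 0.21 and 0.29. Its WT arrays read 10.72, 10.32 and 10.45 and its *E168d2neo/d2neo* arrays 11.09, 10.97 and 10.90, without overlap, as 11.2% of all tested probes were higher there. A second probe (ILMN_2621148) gave -0.003, -0.005 and -0.035, with 95% intervals inside -0.34 to 0.30. Of the adaptors, *Arl3*, a GTPase that releases lipid-anchored cargo in the cilium, was lower in *E168d2neo/d2neo* (-0.63, adjusted p = 0.0379), beside -0.17 in *R90Wneo/Wneo* and -0.47 in *Crx-/-* (adjusted p = 0.105). A second *Arl3* probe (ILMN_1238801) gave -0.48, -0.10 and -0.27 in the same order, without a call. Of 6 other tested IFT-B genes 0 were called on their standing probe. *Ift74*, the partner of *Ift81*, was looked up after its values were seen, and its standing probe read 6.82, 6.41 and 6.43 in WT and 5.76, 6.17 and 5.77 in *Crx-/-* (-0.65, adjusted p = 0.0781). A dimmer probe (ILMN_1226865), detected on 2 WT arrays and on 0 in *Crx-/-*, was called lower there (adjusted p = 0.043). Its WT mean lay 1.52-fold above the lowest detected signal. This is not a lower limit, since the log2 difference ran from -1.61 to -0.35 over the alternatives. The probe was called in 10 of 24 alternative settings, with an adjusted p of up to 0.292. It was lost without WT replicate 2 (0.125) or 3 (0.116) or any 1 array of *R90Wneo/Wneo* or *Crx-/-*. The remaining tested probe (ILMN_1254446) was not called either, with differences of -1.01 in *Crx-/-*, -0.33 in *R90Wneo/Wneo* and -1.49 in *E168d2neo/d2neo* (adjusted p = 0.0983).

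Among the transcription factors, *Rfx2*, an RFX factor of the kind that binds the X-box, read 7.55, 7.47 and 7.18 in WT, 6.76, 6.67 and 6.80 in *E168d2neo/d2neo*, 6.10, 6.65 and 6.36 in *R90Wneo/Wneo* and 5.87, 6.12 and 6.32 in *Crx-/-*. Every mutant array was below WT. The log2 differences were -0.66 (adjusted p = 0.0594), -1.03 (adjusted p = 0.0213) and -1.30 (SE 0.18, adjusted p = 0.00194). *Rfx4* was detected on all 3 WT arrays, on none in *E168d2neo/d2neo* and on 1 each in the other mutants. In *E168d2neo/d2neo* it was called lower (limma adjusted p = 0.0367, or 0.0631 with the replicate number as a block). Its WT mean lay 1.93-fold above the higher of the lowest detected signal and the signal in that genotype. This is not a lower limit, since the fitted difference ran from -1.32 to -0.69 over the alternatives. In *Crx-/-*, where most of its arrays were not above background, the fitted difference was -1.18 (adjusted p = 0.0324), from -1.62 to -0.70 over the alternatives. A second tested *Rfx4* probe (ILMN_3089352) gave 0.25 in *Crx-/-* and was not called in any mutant. *Foxj1*, the factor of motile cilia, had no probe detected. Markers of multiciliated cells summed to a linear signal of 237 to 278 in WT, 202 to 218 in *E168d2neo/d2neo*, 197 to 209 in *R90Wneo/Wneo* and 165 to 166 in *Crx-/-*, below WT in each mutant. The median log2 difference of the 5 tested was 0.04 in *Crx-/-*, so the lower sum there was not shared by most of them. This median was -0.21 for *E168d2neo/d2neo* and -0.11 for *R90Wneo/Wneo*. Of these 5, 1 was called lower in *Crx-/-*, where 3.87% of all tested probes were, and 0 in the other genotypes. *Foxj1* and *Dnah5* were undetected, and the part of these markers in the results was not tested. Of the 8 partner genes called, 7 had a promoter window. A whole X-box stands in those of *Dynlrb2* and *Rfx2* itself, or 2 of 7 genes, against 5.25% of all windows, and the arm GTTGCC in these and *Dynll1*, or 3 of 7, against 12.5%.

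These 14 partner calls differed in how far they depended on single arrays. *Ift43* and *Dynlrb2* in *E168d2neo/d2neo* and *Crx-/-*, and *Dync2i1* and *Rfx2* in *Crx-/-*, were called in 24 of 24 alternative settings. *Dynlrb2* in *R90Wneo/Wneo* was called in 21 of 24 and lost without *R90Wneo/Wneo* replicate 1 (adjusted p = 0.0522), with only the compared genotypes in the fit (0.0855) and by SAM (0.0764). *Dync2i1* in *E168d2neo/d2neo* was called in 21 of 24 and lost without WT replicate 2 (0.053) or 3 (0.0579) and without both low-signal arrays (0.0546). *Rfx2* in *R90Wneo/Wneo* was called in 17 of 24 and lost without WT replicate 1 (0.0854) or 2 (0.0787), *R90Wneo/Wneo* replicate 1 (0.111) or 3 (0.0756) or both low-signal arrays (0.0689), with only the compared genotypes (0.111) and by SAM (0.0951). The remaining 5 were called in 14 (*Dync2li1*), 13 (*Dynll1*), 11 (*Arl3*), 8 (*Rfx4* in *E168d2neo/d2neo*) and 12 (*Rfx4* in *Crx-/-*) of 24, with an adjusted p of up to 0.113, 0.139, 0.151, 0.239 and 0.132. Each of these 5 was lost without WT replicate 1, at an adjusted p of 0.0811, 0.0863, 0.0678, 0.0925 and 0.0773.

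**Figure D4:**
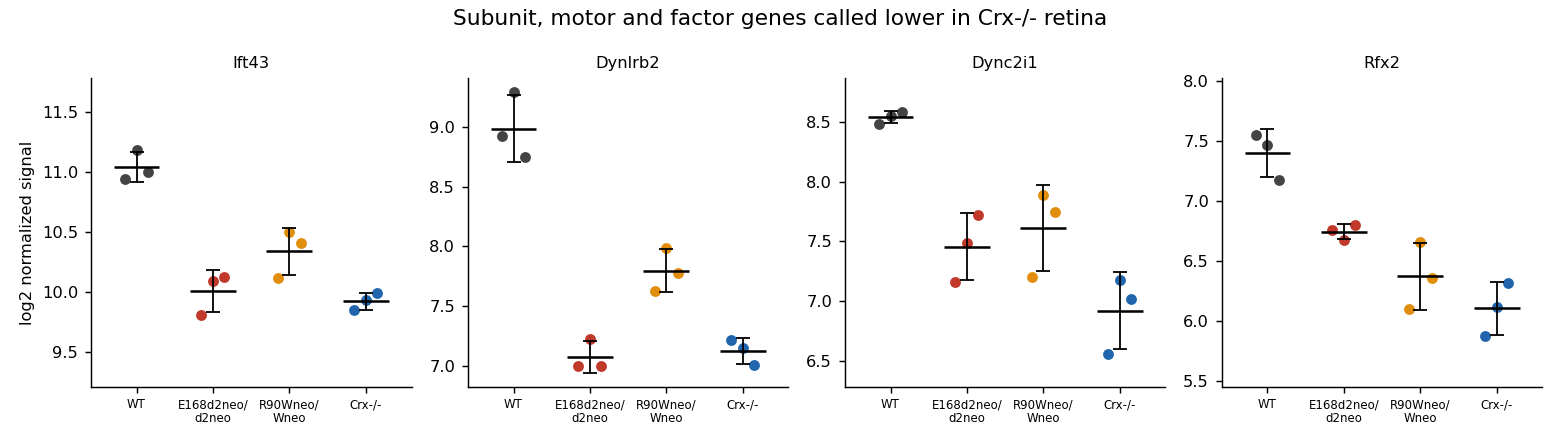
Log2 normalized signal of 4 partner genes called lower in *Crx-/-*, by genotype, with arrays as points and the mean and SD of 3 as bars. *Dynlrb2* falls from a mean of 8.98 in WT to 7.80 in *R90Wneo/Wneo* and 7.08 and 7.13 in *E168d2neo/d2neo* and *Crx-/-*, and no mutant array of these genes reaches its WT arrays.

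**Figure D5:**
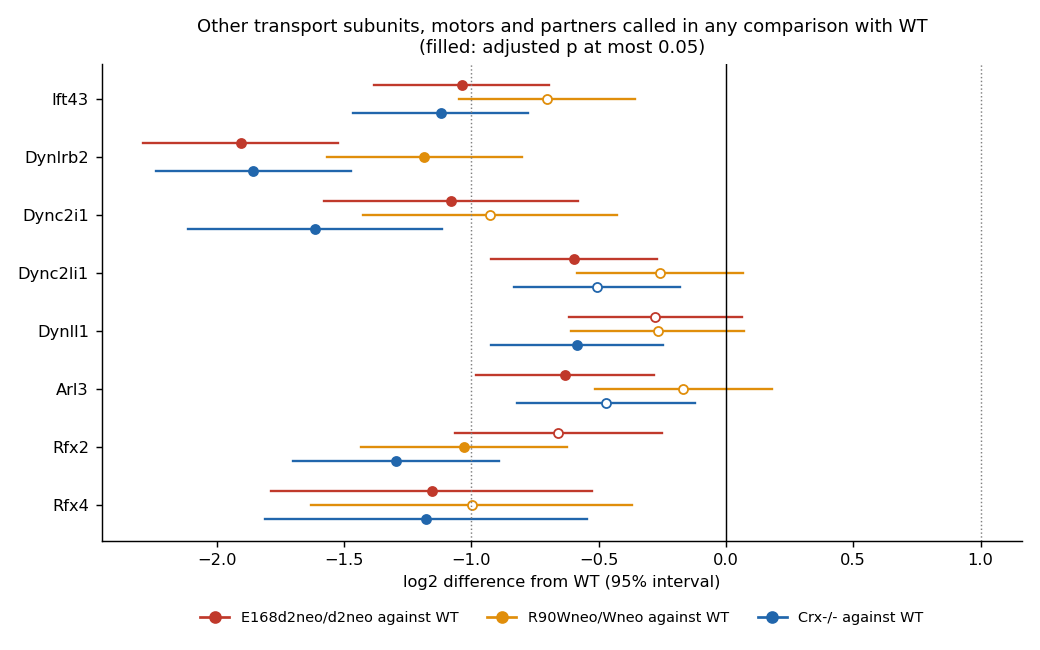
Log2 difference from WT with 95% interval for the 8 partner genes called in at least 1 comparison with WT. Filled points have an adjusted p of at most 0.05 and dotted lines mark 2-fold. All filled points are left of 0, and the *Rfx4* point of *E168d2neo/d2neo* is of a probe undetected there.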

How the data were processed

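Retinal RNA pools of 4 genotypes, 3 arrays each, were measured on Illumina MouseWG-6 v2.0 bead arrays. The authors deposited for each of 45281 probes a signal intensity per array, background-subtracted in GenomeStudio and not normalized between arrays, and a detection p-value against the negative controls. Per the methods, each array took 4 retinas of 1 male and 1 female, and the p-values measure the spread between such pools. The series value table deposited beside it holds intensity that is the same signal times 1 factor per array, with identifiers that did not belong to its values, so it was matched through the signal table and used only as an alternative scaling. Gene symbols came from the platform annotation, where 34885 probes carry 1 symbol, 18 more than 1 and 10378 no symbol.

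Intensities were quantile-normalized, values under 16 set to 16 and log2 taken from the deposited intensity (limma 3.58.1, R 4.3.3). Probes detected (p-value below 0.05) on 1 array or more, 24311 in all, entered 1 linear model with a mean for each genotype, fitted to the 12 arrays together. P-values were adjusted by Benjamini-Hochberg separately for every comparison, and calls were made where the adjusted p did not exceed 0.05. The model was tested on simulated data. The number of arrays limits the precision, and an exact permutation test of 3 arrays against 3 cannot go below a two-sided p of 0.1. Where a group was undetected on all its arrays, the WT mean was also set against the lowest signal detected per array. That figure belongs to the main setting and is not a limit over the alternatives.

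The text names each of the 10 IFT genes, with the brightest probe standing for the gene, the partner genes called on their standing probe against WT or, in a list without one, that of the highest mean, and the 5 genes most like the IFT gene with the smallest F p-value. The IFT genes and the lists were chosen with earlier results of these data known. Alternatives covered scaling, background, floor, filter, samples in the fit, replicate block, array weights, SAM and leaving out arrays.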

Additional observations from a re-analysis of the deposited data

How the results depend on the processing

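The precision is set by 3 pools per genotype and by 2 arrays of low signal, whose array weights were 0.356 (WT replicate 1) and 0.176 (*E168d2neo/d2neo* replicate 1). Of 72 single-gene results under 1521 alternative values, 1396 kept their direction and side of the threshold, 95 lost and 5 gained a call, and 25 changed sign. Where not said otherwise, the cause of a change was not tested.

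The count of IFT probes called in *Crx-/-* against WT, 1 in the main setting, was 0 without a filter on detection (more probes are then tested, adjusted p = 0.0571), 0 with only the compared genotypes in the fit (fewer arrays, adjusted p = 0.0586), 2 with array weights and from 0 to 1 with 1 array left out. In *E168d2neo/d2neo* against WT it went from 0 to 2 with array weights (*Ift140* and *Ift52*) and from 0 to 1 with 1 array left out, and for any difference among genotypes from 0 to 1 with array weights (*Ift81*) and from 0 to 1 with 1 array left out. No other count of IFT calls changed. Replicate numbers are shared between genotypes, and no label used here says what a number stands for. Deviations of same-numbered arrays correlated above 0.1 in all 3 pairs of WT with *E168d2neo/d2neo* (0.313, 0.177 and 0.101) and not in all 3 pairs of any other comparison (-0.05 to 0.11), and 7 of 12 arrays were most like one of their own number. With the replicate number as a block the *Crx-/-* count was 2, the second being the dimmer *Ift140* probe (adjusted p = 0.0186), and the other counts stayed at 0. Among partner genes the block ended both *Rfx4* calls, at an adjusted p of 0.0631 (*E168d2neo/d2neo*) and 0.0569 (*Crx-/-*), and that of the dimmer *Ift74* probe (0.057), and no other.

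Signs changed on probes of *Ift20*, *Ift81* and *Ift172*, and not only where differences were near 0. In the main setting *Ift81* ILMN_2993804 differed by 0.32 in *E168d2neo/d2neo* and 0.32 in *R90Wneo/Wneo*. *Ift172* ILMN_2623451 differed by -0.15 in *R90Wneo/Wneo*. Scaling to a common array mean gave 0.046 (*E168d2neo/d2neo*) and 0.041 (*R90Wneo/Wneo*) for *Ift20* ILMN_2847618, 0.065 (*R90Wneo/Wneo*) for *Ift20* ILMN_2592093 and 0.086 (*E168d2neo/d2neo*) for *Ift81* ILMN_2634702. Array weights gave 0.101, 0.011 and 0.147 for all but the second of these, and -0.138 for *Ift81* ILMN_2993804 in *Crx-/-*. Leaving out both low-signal arrays, an alternative chosen after seeing the data, gave 0.077, 0.016 and 0.188 for the same 3, and -0.05 (*R90Wneo/Wneo*) and -0.254 (*Crx-/-*) for *Ift81* ILMN_2993804. With 1 array left out, *Ift20* ILMN_2847618 ranged from -0.147 to 0.108 and from -0.051 to 0.041, *Ift20* ILMN_2592093 from -0.058 to 0.029, *Ift81* ILMN_2634702 from -0.158 to 0.161, *Ift81* ILMN_2993804 from -0.047 to 0.533 (*E168d2neo/d2neo*), -0.05 to 0.53 (*R90Wneo/Wneo*) and -0.256 to 0.325 (*Crx-/-*), and *Ift172* ILMN_2623451 in *R90Wneo/Wneo* from -0.303 to 0.03. Standing for *Ift20* by its probe of smallest F p-value gave -0.211 in *Crx-/-*. Over all probes, scaling to a common mean turned 895 lower and 700 higher in *E168d2neo/d2neo* into 688 and 1158, 206 and 120 in *R90Wneo/Wneo* into 184 and 162, and 942 and 763 in *Crx-/-* into 827 and 923.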
